A study of Mus musculus with 18 samples.

Results

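Cadherins and protocadherins were followed by gene name in cell lines from mouse malignant peripheral nerve sheath tumors (MPNSTs), sarcomas of the nerve sheath. Every gene whose name was Cdh followed by a number, or began with Pcdh, was taken, which gave 59 of the 35275 genes in the deposited count table. They were 5 classical type I cadherins, 13 classical type II cadherins, 5 other numbered cadherins, 24 clustered protocadherins (1 listed alpha gene, 22 beta genes and 1 listed gamma gene) and 12 non-clustered protocadherins. RNA-seq compared 3 lines with *Nf1* and p53 (*Trp53*) deleted (*Nf1*/*p53* dKO) and 3 lines with *Nf1* and *Cdkn2a* deleted (*Nf1*/*Cdkn2a* dKO), each line from its own tumor and grown as 3 cultures. The tumors arose after injection of an adenovirus carrying Cas9, under a cytomegalovirus promoter in both cases, with guide RNAs for the 2 genes, into the sciatic nerve of wild-type 129 Sv/Jae mice. That promoter is active in many cell types, *Nf1* was targeted in both genotypes, no line with an intact *Nf1* gene or normal nerve was compared, and the cells received no treatment. Ages of the mice are not given in the sources used here. The comparison asks how the lines differ with the second deleted gene, and each genotype rests on 3 tumors.

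Classical cadherins are calcium-dependent adhesion proteins that bind mostly to the same cadherin on a neighboring cell, and their tails hold catenins, which link the junction to actin. Type I cadherins include E-cadherin of epithelia and N-cadherin of neural and mesenchymal cells, and type II cadherins sort cells in the developing nervous system and in mesenchyme. Protocadherins have more extracellular repeats and a tail that does not bind β-catenin. The clustered ones stand in tandem arrays, where each cell chooses its own set of promoters, and the combination serves as a label of cell identity in neurons. Nerve sheath cells and their precursors are known for changing cadherins as they develop, with N-cadherin and cadherin-19 as the familiar examples.

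Total counts per library ran from 19560535 to 28312207, and the summed cultures of a line gave 65206479 to 73065228 counts, so that 1 count in a line stood for 0.0129 to 0.0160 CPM, the usual per-library scale, here with TMM factors. *Trp53* had 94.1, 67.5 and 58.7 CPM across the *Nf1*/*p53* dKO lines, against 247, 246 and 185 CPM across the *Nf1*/*Cdkn2a* dKO lines, whereas *Cdkn2a* (363, 279 and 42.9 against 169, 392 and 285 CPM) and *Nf1* overlapped. Gene-level counts do not read a small edit, so they do not check the *Cdkn2a* and *Nf1* labels. The cells are labelled mesenchymal, and the summed level of 8 mesenchymal and fibroblast markers was 9846 to 23448 CPM across the *Nf1*/*p53* dKO lines, against 11161 to 19040 CPM across the *Nf1*/*Cdkn2a* dKO lines. In a sample of many cells, fewer cells that use a gene and less RNA per cell cannot be told apart.

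The genotypes were compared on the summed counts of the 6 lines by a two-sided quasi-likelihood fit in edgeR, with p-values adjusted by Benjamini-Hochberg over the 15207 genes tested. A log2 fold change above 0 means more RNA in the *Nf1*/*Cdkn2a* dKO lines. Of the 59 genes, 42 had enough counts to be tested. The other 17 held at most 75 counts over all libraries, and 4 of them (*Cdh7*, *Cdh8*, *Cdh20* and *Pcdhb1*) had none. At an adjusted p under 0.05, *Cdh15* and *Cdh10* were lower and *Pcdh7* was higher in the *Nf1*/*Cdkn2a* dKO lines, which is 3 of 42 (7.14%) beside 1.80% of all genes tested (0.638% called higher and 1.16% called lower). Without *Nf1*/*p53* dKO lines 1, 2 and 3, 2 of 44, 1 of 43 and 2 of 44 members tested were called. Over all genes, 172 of 15549, 27 of 15605 and 107 of 15711 were called there. Without any 1 of the *Nf1*/*Cdkn2a* dKO lines, 0 of the 43 or 44 members tested were called. Over all genes, 0 of 15872, 2 of 15791 and 23 of 15842 were then called (lines 1, 2 and 3), so calls were lost over the whole table. At an unadjusted p under 0.05, 13 of the 42 members (31.0%) passed, beside 22.4% of all genes tested (9.81% higher, 12.5% lower). The log2 fold change was above 0 in 26 members and below 0 in 16, where 48.2% and 51.8% of all genes stood. In 13 members the genotypes were apart, with every line of one above every line of the other, 6 of them with the *Nf1*/*Cdkn2a* dKO lines above and 7 below, which is 31.0% beside 31.4% of all genes. A gene counted in only 1 genotype passes the filter through that genotype, so these counts are descriptions.

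The promoters of the 3 called genes are shown because their RNA separates the genotypes by test. They are RefSeq windows on GRCm38.p6 from 250 bases before to 50 bases after the RefSeq start, on the gene's strand. That start lies inside the outermost bounds of GENCODE M21, the gene annotation used for positions below, by 408 bases for *Cdh15*, 1382 for *Cdh10* and 114 for *Pcdh7*. In the windows, capitals mark each E-box, CANNTG, the core that basic helix-loop-helix factors bind. The pattern reads alike on both strands and includes the form CAGCTG. *Cdh15* is at chr8:122848124-122848423, *Cdh10* at chr15:18820079-18820378 and *Pcdh7* at chr5:57717831-57718130, all on the + strand.
Cdh15: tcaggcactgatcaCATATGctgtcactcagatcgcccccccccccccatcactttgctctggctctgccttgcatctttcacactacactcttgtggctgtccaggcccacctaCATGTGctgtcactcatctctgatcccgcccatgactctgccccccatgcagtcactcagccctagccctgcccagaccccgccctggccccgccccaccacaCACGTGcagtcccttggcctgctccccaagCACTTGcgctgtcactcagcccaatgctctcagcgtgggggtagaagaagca
Cdh10: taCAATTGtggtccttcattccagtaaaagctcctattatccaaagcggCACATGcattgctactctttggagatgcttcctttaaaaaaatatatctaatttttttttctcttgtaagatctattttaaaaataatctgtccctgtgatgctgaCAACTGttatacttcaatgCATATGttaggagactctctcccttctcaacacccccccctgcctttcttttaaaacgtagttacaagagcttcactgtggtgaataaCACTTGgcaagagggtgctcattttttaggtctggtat
Pcdh7: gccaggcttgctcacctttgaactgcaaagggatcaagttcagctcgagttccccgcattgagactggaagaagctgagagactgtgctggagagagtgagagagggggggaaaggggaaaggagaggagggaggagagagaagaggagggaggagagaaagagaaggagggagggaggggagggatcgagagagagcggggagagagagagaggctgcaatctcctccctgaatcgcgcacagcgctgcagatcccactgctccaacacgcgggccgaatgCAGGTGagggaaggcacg
The *Cdh15* window held 4 E-boxes, the *Cdh10* window 5 and the *Pcdh7* window 1, and none of them was CAGCTG. Of 32851 promoters of this length, 72.3% held at least 1 E-box, 6.49% held 4 or more, and 16.3% held CAGCTG. A match is a run of letters and not a bound site.

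**Figure D1:**
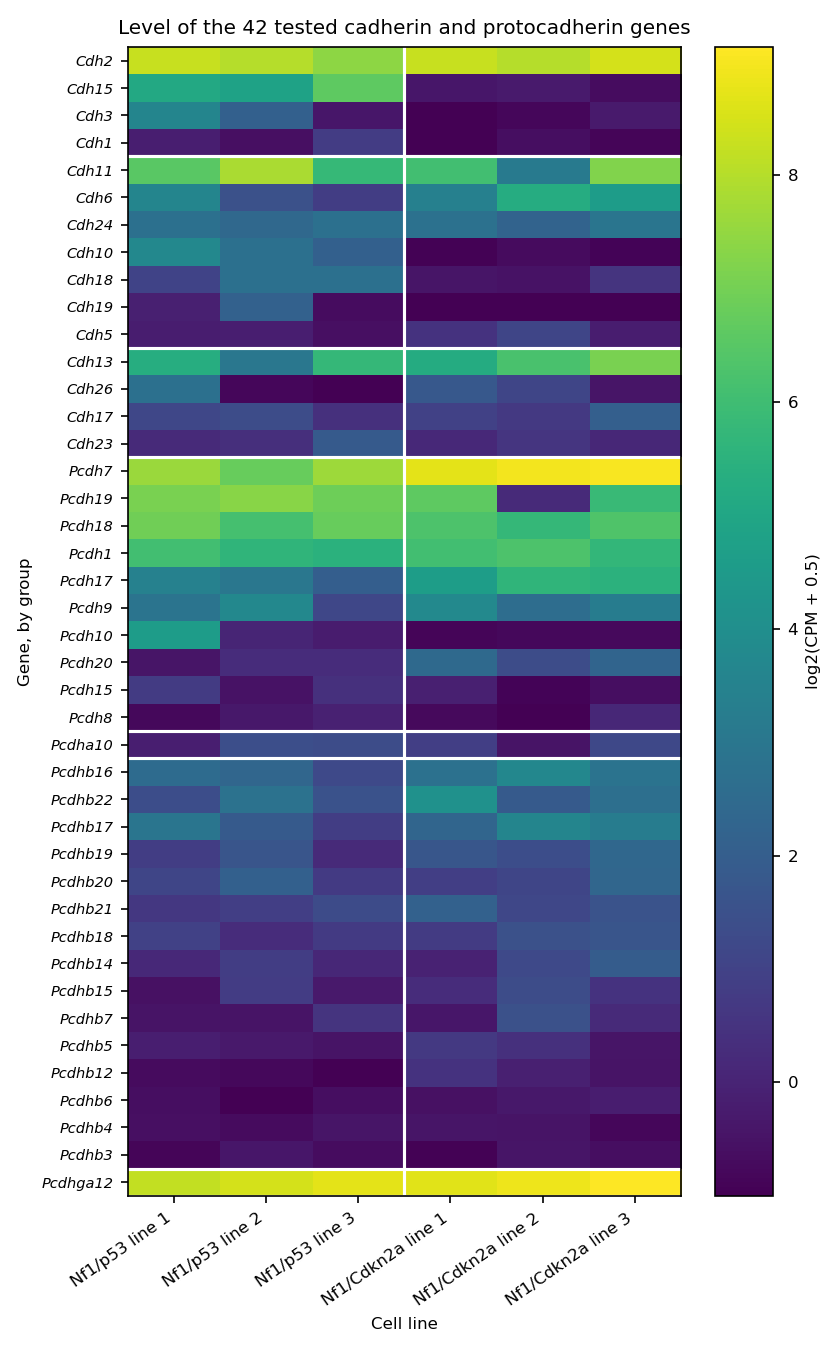
Level of the 42 tested genes, as log2(CPM + 0.5) with the cultures of a line summed, in the 3 *Nf1*/*p53* dKO lines (left of the white vertical line) and the 3 *Nf1*/*Cdkn2a* dKO lines (right). Horizontal white lines part the gene groups. *Cdh2*, *Pcdh7* and the gamma row are bright in every line, and *Cdh15* and *Cdh10* darken on the right. In *Nf1*/*Cdkn2a* dKO line 2, *Pcdh19* is dark and *Cdh11* is dimmer than in the other lines.

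Type I cadherins differed most in *Cdh15*, which encodes M-cadherin, the adhesion protein of muscle satellite cells and myoblasts (chromosome 8, 122847966 to 122867397, GRCm38, a protein-coding gene on the + strand). It had 34.2, 27.9 and 97.6 CPM across the *Nf1*/*p53* dKO lines, against 0.273, 0.332 and 0.125 CPM across the *Nf1*/*Cdkn2a* dKO lines. All *Nf1*/*p53* dKO lines lay far above all *Nf1*/*Cdkn2a* dKO lines, in which 48 counts were seen in all against 11684. The mean fell from 53.3 ± 38.6 CPM (SD, n = 3 lines) to 0.243 ± 0.106 CPM (SD, n = 3 lines), a log2 fold change of -7.76 with a standard error of 0.73 (edgeR adjusted p = 0.019). Leaving out a line moved the log2 fold change within -8.05 to -6.98, but the adjusted p rose to 0.0969, 0.0997 and 0.0669 without *Nf1*/*Cdkn2a* dKO lines 1, 2 and 3. The 8 markers of muscle progenitors and muscle all had a higher mean in the *Nf1*/*p53* dKO lines, where they summed to 79.4 to 480 CPM against 7.27 to 27.8 CPM. However, only 4 were tested and 1 passed as lower, beside 1.16% of all genes called lower. *Myod1* (204 CPM) and *Chrna1* (161 CPM) made up most of the highest sum, in *Nf1*/*p53* dKO line 3, the line with most *Cdh15*. In the *Nf1*/*Cdkn2a* dKO lines *Chrna1* was nearly all of the sum, at 27.2, 7.24 and 12.1 CPM. *Myod1* and *Myog* were at 0 in all *Nf1*/*Cdkn2a* dKO lines and at 1.75, 0.269 and 204 CPM and 0.142, 0.0566 and 1.07 CPM in the others, whereas *Pax3* and *Pax7* were nearly absent from both genotypes, with 12 and 3 counts in all. *Myf5* fell from 28.0, 24.2 and 27.7 CPM to 0, 0 and 0.0156 CPM (edgeR adjusted p = 0.0067). The part of muscle-type cells in the *Cdh15* result was not tested.

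*Cdh2*, N-cadherin, was the only type I cadherin above 1 CPM in all 6 lines. It had 314, 257 and 172 CPM across the *Nf1*/*p53* dKO lines, against 311, 258 and 358 CPM across the *Nf1*/*Cdkn2a* dKO lines. The genotypes overlapped, with a log2 fold change of 0.32 and a standard error of 0.25 (edgeR adjusted p = 0.49). Per kilobase of exon, the scale on which genes can be compared, *Cdh2* made up 74.6%, 77.0% and 41.2% of the type I cadherin RNA across the *Nf1*/*p53* dKO lines, against 99.8%, 99.5% and 99.7% in the *Nf1*/*Cdkn2a* dKO lines. In *Nf1*/*p53* dKO line 3, *Cdh15* took 58.2% and *Cdh2* came second.

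*Cdh3*, P-cadherin, and *Cdh1*, E-cadherin, are neighbors on chromosome 8 (106510891 to 106557297 and 106603351 to 106670246, GRCm38) and are epithelial adhesion genes. *Cdh3* had 11.6, 3.82 and 0.263 CPM across the *Nf1*/*p53* dKO lines, against 0, 0.0721 and 0.328 CPM across the *Nf1*/*Cdkn2a* dKO lines. The genotypes overlapped, since *Nf1*/*p53* dKO line 3 was as low as the *Nf1*/*Cdkn2a* dKO lines, and the log2 fold change was -5.27 with a standard error of 1.71 (edgeR adjusted p = 0.143). *Cdh1* had 0.400, 0.170 and 1.26 CPM against 0, 0.144 and 0.0469 CPM. These low levels did not overlap, but the difference did not pass the test (log2 fold change -3.20, standard error 1.20, edgeR adjusted p = 0.185). The 9 epithelial markers summed to 2.39 to 740 CPM across the *Nf1*/*p53* dKO lines, against 8.45 to 611 CPM across the *Nf1*/*Cdkn2a* dKO lines. *Krt8* and *Krt18* made up most of the highest sums. *Epcam*, *Krt5*, *Krt14*, *Cldn3*, *Cldn4*, *Cldn7* and *Esrp1* were at or under 0.913 CPM in every line. *Esrp1*, an epithelial splicing factor, had 2 counts in all. *Cdh4*, R-cadherin, had 5 counts in all and was not tested. Of the 4 type I genes tested, 1 fell and 3 did not pass, beside 1.16% of all genes called lower. Their median log2 fold change was -4.24, beside -0.02 over all genes. *Cdh1*, *Cdh3* and *Cdh15* had 13, 26 and 48 counts over the *Nf1*/*Cdkn2a* dKO lines. They passed the filter through the *Nf1*/*p53* dKO lines, where they are high, so the median is a description and not a result for the group.

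**Figure D2:**
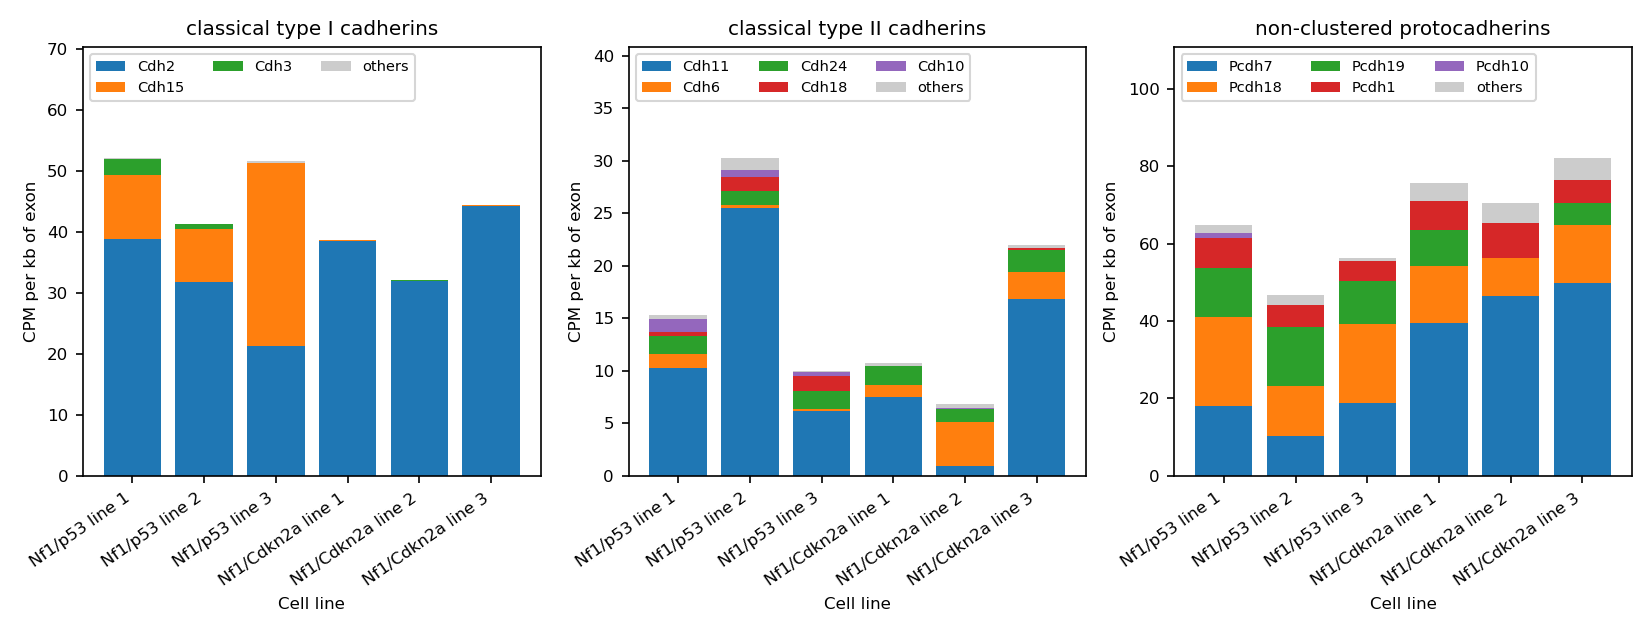
Make-up of 3 groups in each line, in CPM per kilobase of exon, as bars stacked by gene. *Cdh15* adds 20.2% to 58.2% of the type I bar in the *Nf1*/*p53* dKO lines and at most 0.318% in the *Nf1*/*Cdkn2a* dKO lines, *Cdh11* leads type II in 5 of 6 lines, and *Pcdh7* widens in the *Nf1*/*Cdkn2a* dKO lines.

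Among type II cadherins, *Cdh10* was the gene that passed the test. It encodes a cadherin best known from the developing brain (chromosome 15, 18818947 to 19014236, GRCm38, + strand). It had 12.9, 6.15 and 3.83 CPM across the *Nf1*/*p53* dKO lines, against 0.0160, 0.115 and 0.0313 CPM across the *Nf1*/*Cdkn2a* dKO lines, where 11 counts were seen in all against 1711. The groups did not overlap, and the log2 fold change was -7.07 with a standard error of 0.89 (edgeR adjusted p = 0.029). The adjusted p was 0.0659 without *Nf1*/*p53* dKO line 2 and 0.112, 0.0947 and 0.102 without *Nf1*/*Cdkn2a* dKO lines 1, 2 and 3, and the log2 fold change then ranged from -8.22 to -6.45 over all lines left out. *Cdh18*, a close relative on the same chromosome, had 1.55, 6.12 and 6.21 CPM against 0.241, 0.202 and 0.938 CPM. All *Nf1*/*p53* dKO lines were higher, but the difference did not pass the test (log2 fold change -3.33, standard error 0.85, edgeR adjusted p = 0.091). *Cdh12*, also on chromosome 15, had 58 counts, all of them in *Nf1*/*p53* dKO line 1 at 0.748 CPM, and *Cdh9* there had up to 0.424 CPM in *Nf1*/*p53* dKO line 2. *Cdh6* is on that chromosome too, and its log2 fold change was above 0.

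*Cdh6*, K-cadherin, is a cadherin of kidney and of early neural crest. It had 11.7, 2.36 and 1.27 CPM across the *Nf1*/*p53* dKO lines, against 10.3, 38.0 and 23.8 CPM across the *Nf1*/*Cdkn2a* dKO lines. *Nf1*/*p53* dKO line 1 was above the lowest *Nf1*/*Cdkn2a* dKO line, and the log2 fold change of 2.24 (standard error 0.91) did not pass the test (edgeR adjusted p = 0.212). *Cdh11*, OB-cadherin of mesenchyme and bone, was the leading type II gene by level. It had 91.5, 227 and 55.2 CPM against 66.6, 8.34 and 150 CPM (*Nf1*/*Cdkn2a* lines 1, 2 and 3). *Nf1*/*Cdkn2a* dKO line 2 stood below all the others, 6.62 times under the next line, and the genotypes overlapped (log2 fold change -0.74, standard error 0.96, edgeR adjusted p = 0.684). Without *Nf1*/*p53* dKO line 2 the log2 fold change was 0.04. Per kilobase, *Cdh11* made up 62.2% to 84.3% of type II cadherin RNA in 5 lines and 13.7% in *Nf1*/*Cdkn2a* dKO line 2, in which *Cdh6* took 61.7%. *Cdh24*, expressed widely at a low level, was steady, with 6.24, 4.79 and 6.19 CPM against 6.32, 4.21 and 7.23 CPM (log2 fold change 0.04, edgeR adjusted p = 0.946). That sign turned under raw total counts and under upper-quartile scaling.

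*Cdh19*, cadherin-19 of Schwann cell precursors and nerve sheath cells, had 0.425, 3.90 and 0.138 CPM across the *Nf1*/*p53* dKO lines, against no count in any *Nf1*/*Cdkn2a* dKO culture. With the limit of 3 counts over the whole genotype that a count of 0 allows, the *Nf1*/*Cdkn2a* dKO lines were at least 94.3-fold lower. Of the 319 counts 276 came from *Nf1*/*p53* dKO line 2, and without it the bound was at least 18.7-fold. *Nf1*/*p53* dKO line 2 was 9.18 times the next line, and the difference did not pass the test (edgeR adjusted p = 0.115). The 9 Schwann cell markers summed to 8.50 to 79.6 CPM across the *Nf1*/*p53* dKO lines, against 6.13 to 62.7 CPM across the *Nf1*/*Cdkn2a* dKO lines, and *Gap43* and *Ngfr* made up most of the highest sums. None of the 7 tested passed in edgeR, and 6 had a log2 fold change below 0 (median -2.67), with *Ngfr* (-5.40) and *Mbp* (-4.02) at an unadjusted p under 0.05. *Sox10*, the lineage factor, was at or under 0.0990 CPM in every line. The part of these cells in the *Cdh19* values was not tested. *Cdh5*, VE-cadherin of endothelium, stayed low, at 0.387, 0.410 and 0.166 CPM against 0.882, 1.69 and 0.375 CPM, and overlapped (log2 fold change 1.61, standard error 0.67, edgeR adjusted p = 0.221). The 8 endothelial markers summed to 1.42 to 2.11 CPM and 6.79 to 25.6 CPM, and the higher sums were nearly all *Esam* (0.361, 0.424 and 0.111 CPM against 24.6, 6.35 and 9.93 CPM). *Esam* rose (log2 fold change 5.50, edgeR adjusted p = 0.038). *Tek* went the other way and fell (log2 fold change -3.23, edgeR adjusted p = 0.046), *Pecam1* stood at -1.29 (edgeR adjusted p = 0.162), and *Cldn5* and *Emcn* had 9 and 2 counts in all. The part of endothelial cells in the *Cdh5* values was not tested. Of the 7 type II genes tested, 1 fell and 6 did not pass, beside 1.16% of all genes called lower. The lines of 3 (*Cdh10*, *Cdh18* and *Cdh19*) did not overlap, all lower in the *Nf1*/*Cdkn2a* dKO, beside 16.6% of all genes. *Cdh10* and *Cdh19* passed the filter only through the *Nf1*/*p53* dKO lines, where they are high, so this count is a description. The median log2 fold change of the 7 type II genes was -0.74.

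The other numbered cadherins gave no call, and none had an unadjusted p under 0.05 in edgeR. *Cdh13*, T-cadherin, is held in the membrane by a lipid anchor and has no catenin-binding tail. It had 39.5, 7.65 and 52.9 CPM across the *Nf1*/*p53* dKO lines, against 36.7, 74.2 and 135 CPM across the *Nf1*/*Cdkn2a* dKO lines, with a log2 fold change of 1.30 and a standard error of 0.74 (edgeR adjusted p = 0.351). *Nf1*/*p53* dKO line 2 was the lowest and the rest overlapped. *Cdh23*, a cadherin of the inner ear's tip links, had 3.13 CPM in *Nf1*/*p53* dKO line 3 and 0.579 to 0.995 CPM in the others. *Cdh26* was at 6.16, 0.0707 and 0 CPM against 2.98, 1.64 and 0.235 CPM, so that its lines differed more within each genotype than between the genotypes. *Cdh17*, liver-intestine cadherin, lay between 0.830 and 3.64 CPM in all lines.

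**Figure D3:**
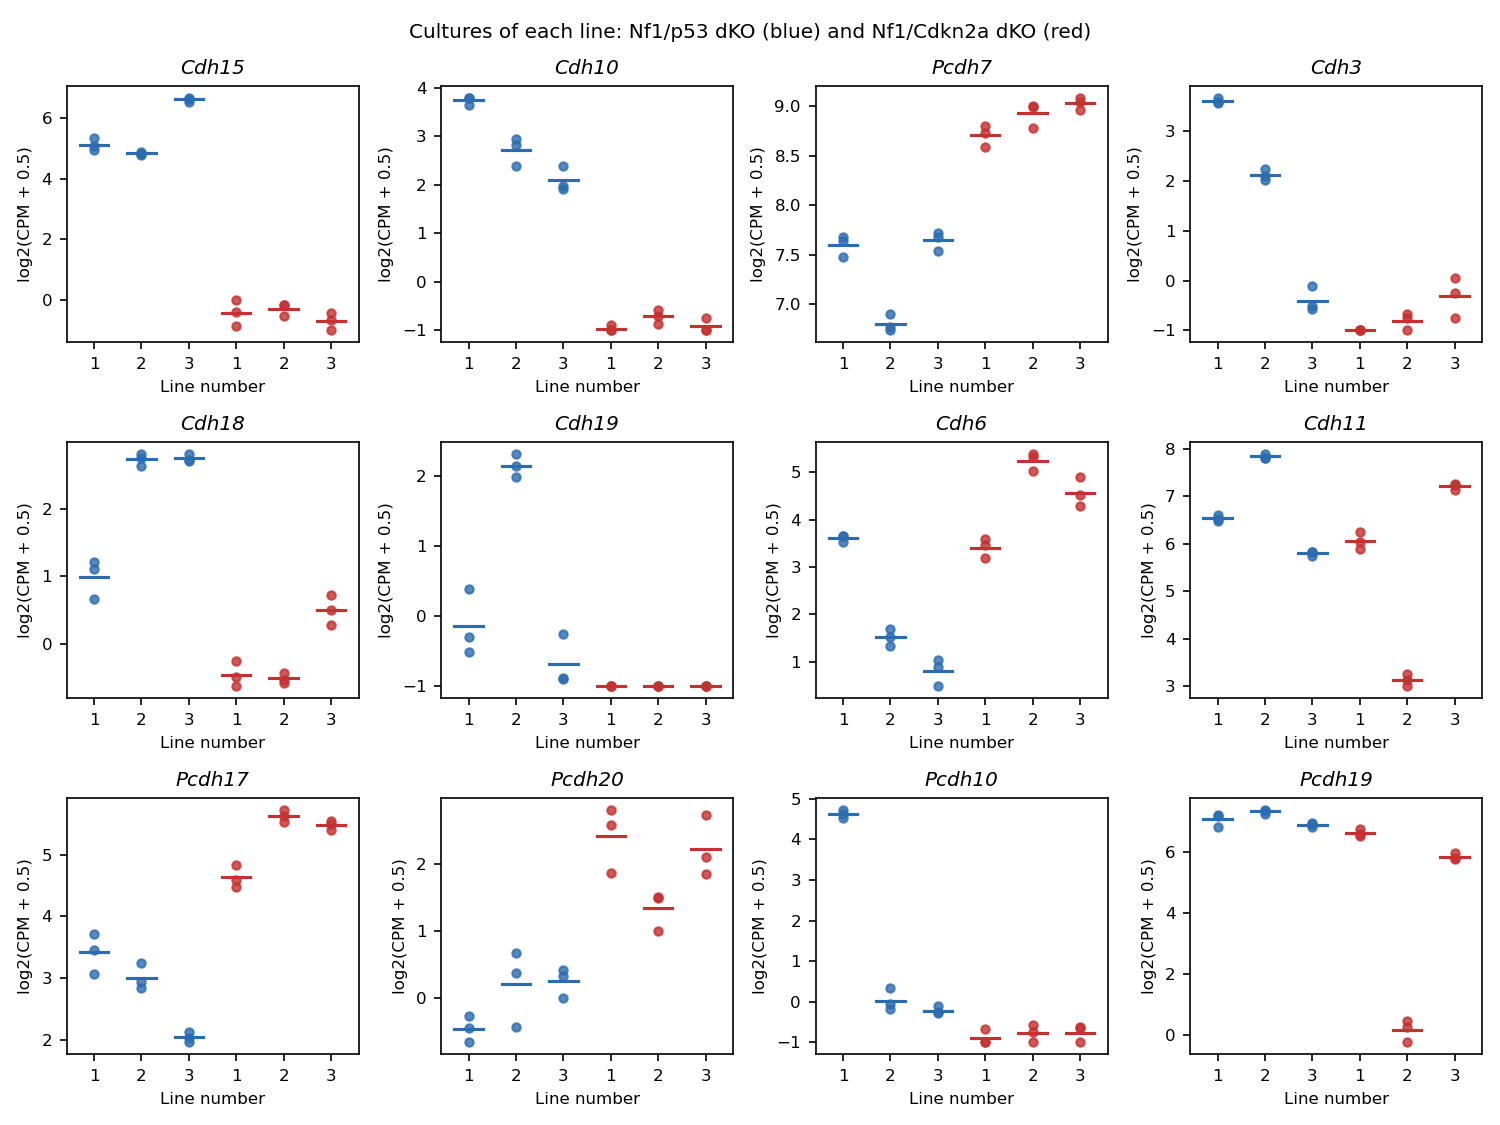
Levels of 12 genes in each of the 18 cultures, as log2(CPM + 0.5), by line number for the *Nf1*/*p53* dKO (blue) and the *Nf1*/*Cdkn2a* dKO (red), each dot a culture and each bar the mean of a line. Cultures of a line lie close together, so that the spread in *Cdh11*, *Cdh6*, *Pcdh10* and *Pcdh19* is between lines, and the vertical scale differs from panel to panel.

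Of the non-clustered protocadherins, *Pcdh7* rose. It encodes a protocadherin that binds the phosphatase inhibitor SET in cancer cells (chromosome 5, 57717967 to 58133230, GRCm38, + strand). It had 192, 110 and 200.3 CPM across the *Nf1*/*p53* dKO lines, against 420.04, 492 and 527 CPM across the *Nf1*/*Cdkn2a* dKO lines. The lowest *Nf1*/*Cdkn2a* dKO line was above the highest *Nf1*/*p53* dKO line, and the mean went from 168 ± 49.9 CPM to 480 ± 54.7 CPM (SD, n = 3 lines each), a log2 fold change of 1.52 with a standard error of 0.26 (edgeR adjusted p = 0.046). The adjusted p was 0.0783, 0.0659 and 0.0718 without *Nf1*/*p53* dKO lines 1, 2 and 3 and 0.140, 0.139 and 0.127 without *Nf1*/*Cdkn2a* dKO lines 1, 2 and 3, at log2 fold changes of 1.30 to 1.67. With raw total counts in place of TMM the log2 fold change was 1.38 and the edgeR adjusted p = 0.0516. Its exons overlap those of *4932441J04Rik* on the opposite strand, a row that had 0.125 to 1.30 CPM. Strand use in the counting is not given in the sources used here, so reads of the pair cannot be fully told apart. Per kilobase, *Pcdh7* made up 28.0%, 22.2% and 33.6% of non-clustered protocadherin RNA across the *Nf1*/*p53* dKO lines, against 52.3%, 65.9% and 60.6% in the *Nf1*/*Cdkn2a* dKO lines, and it led the group in each *Nf1*/*Cdkn2a* dKO line.

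*Pcdh17* and *Pcdh20*, both on chromosome 14 and known from the brain, were next. *Pcdh17* had 10.4, 7.54 and 3.61 CPM against 24.5, 49.3 and 44.5 CPM. The lines did not overlap, and the log2 fold change of 2.45 (standard error 0.46) missed the threshold (edgeR adjusted p = 0.053). *Pcdh20* had 0.245, 0.707 and 0.706 CPM against 5.04, 2.06 and 4.35 CPM, also with no overlap (log2 fold change 2.78, standard error 0.58, edgeR adjusted p = 0.064). *Pcdh18*, a relative of *Pcdh10* and *Pcdh19*, had 122, 69.4 and 109 CPM against 77.9, 53.2 and 81.3 CPM and overlapped (log2 fold change -0.50, edgeR adjusted p = 0.314). *Pcdh1*, a widely expressed protocadherin, had 66.0, 48.4 and 43.8 CPM against 65.7, 79.3 and 52.4 CPM (log2 fold change 0.32, edgeR adjusted p = 0.445). *Pcdh9* ranged from 1.70 to 13.1 CPM with no order by genotype (edgeR adjusted p = 0.782).

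In *Pcdh10* and *Pcdh19*, the latter the gene of an X-linked epilepsy, 1 line stood apart from all the others. *Pcdh10* had 23.8, 0.523 and 0.360 CPM across the *Nf1*/*p53* dKO lines, against 0.0481, 0.0865 and 0.0938 CPM across the *Nf1*/*Cdkn2a* dKO lines. *Nf1*/*p53* dKO line 1 was 45.6 times the next line, and although the lines did not overlap, the log2 fold change of -6.72 (standard error 1.92) did not pass the test (edgeR adjusted p = 0.113). Without that line the log2 fold change was -2.50, and without any other line it lay between -7.27 and -6.48. *Pcdh19* had 135, 159 and 118 CPM across the *Nf1*/*p53* dKO lines, against 98.6, 0.649 and 57.8 CPM across the *Nf1*/*Cdkn2a* dKO lines. *Nf1*/*Cdkn2a* dKO line 2 was 89.1 times below the next lowest line, and the log2 fold change of -1.39 (standard error 1.25) did not pass the test (edgeR adjusted p = 0.549). The other *Nf1*/*Cdkn2a* dKO lines also lay below every *Nf1*/*p53* dKO line, and without line 2 the log2 fold change was -0.81. That line was also the one with little *Cdh11*. The exons of *Pcdh10* and *Pcdh19* overlap antisense rows as well, of which the first had no count and the second at most 0.0141 CPM. *Pcdh15* and *Pcdh8* stayed at or under 1.20 CPM, and *Pcdh11x* and *Pcdh12* had at most 23 counts each and were not tested. Of the 10 non-clustered genes tested, 1 rose and 9 did not pass, beside 0.638% of all genes called higher. Their median log2 fold change was 0.03.

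**Figure D4:**
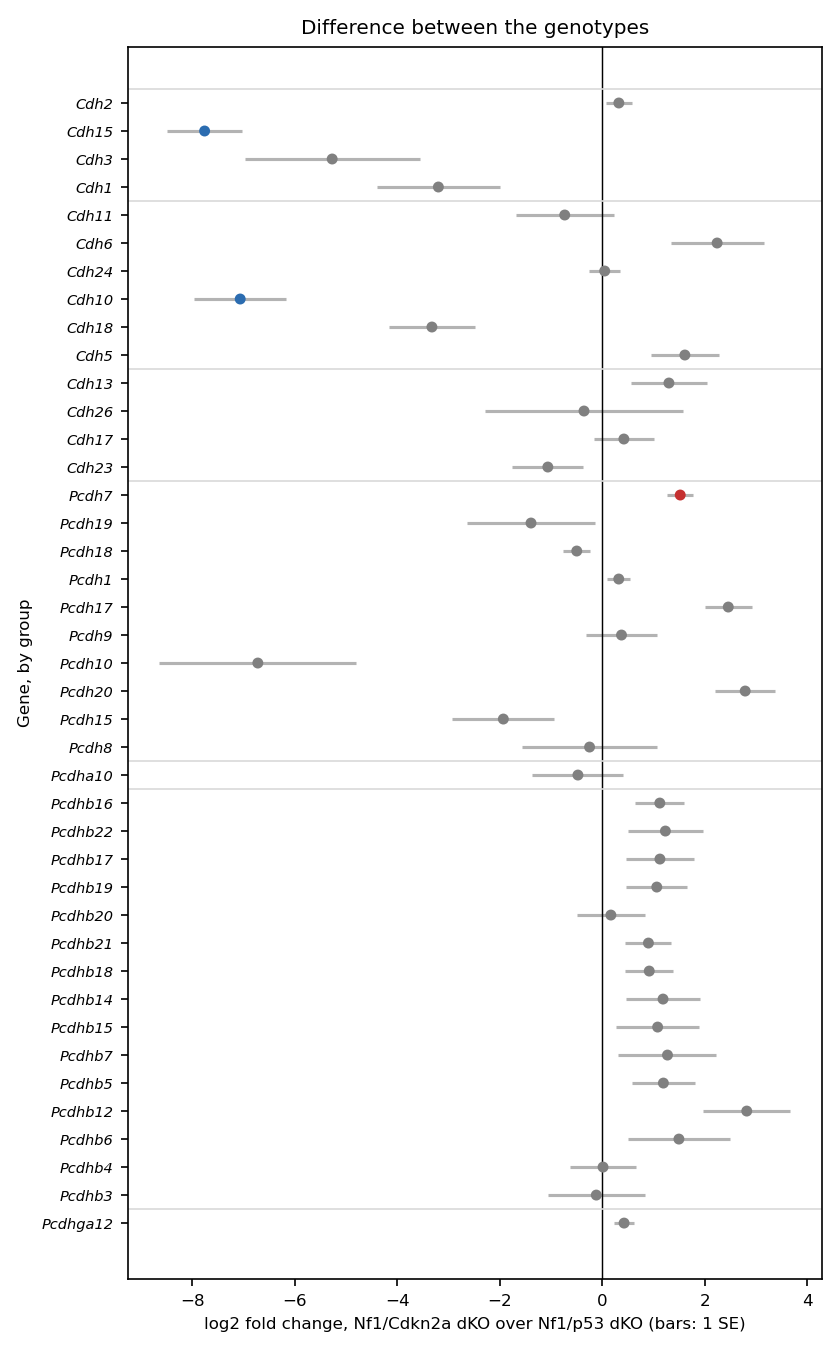
Log2 fold change, *Nf1*/*Cdkn2a* dKO over *Nf1*/*p53* dKO, with bars of 1 standard error from the edgeR fit, for 41 of the 42 tested genes grouped by kind, and *Cdh19* left out because it had no count in the *Nf1*/*Cdkn2a* dKO. Blue marks the 2 genes lower and red the 1 gene higher at an adjusted p under 0.05, and 14 of the 15 beta genes lie above 0.

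The clustered protocadherins stand in tandem on chromosome 18, and the beta genes are single-exon copies of each other, so that reads may be split between them and single values are uncertain. None of the 15 beta genes tested passed the test, and 1 (*Pcdhb12*) had an unadjusted p under 0.05 in edgeR, beside 22.4% of all genes tested. Of the 15 beta genes, 14 had a log2 fold change above 0, beside 48.2% of all genes tested, with a median of 1.12 and a range from -0.12 to 2.82. The summed level of the 22 beta genes was 22.2, 27.0 and 13.5 CPM across the *Nf1*/*p53* dKO lines, against 41.4, 44.2 and 43.4 CPM across the *Nf1*/*Cdkn2a* dKO lines, which is given as a description. *Pcdhb16* had 5.31, 4.60 and 1.87 CPM against 6.45, 12.4 and 6.73 CPM, and *Pcdhb12* had 0.116, 0.0849 and 0.0138 CPM against 0.914, 0.418 and 0.219 CPM. The lines of these genes and of *Pcdhb6* did not overlap, which is 3 of 15 with the *Nf1*/*Cdkn2a* dKO lines above, beside 14.8% of all genes. The log2 fold change was 1.12 for *Pcdhb16* (standard error 0.48, edgeR adjusted p = 0.234) and 2.82 for *Pcdhb12* (standard error 0.85, edgeR adjusted p = 0.125).

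Which beta gene led differed from line to line. Per kilobase, *Pcdhb17* led in *Nf1*/*p53* dKO line 1 and in *Nf1*/*Cdkn2a* dKO lines 2 and 3, *Pcdhb20* in *Nf1*/*p53* dKO line 2, *Pcdhb21* in *Nf1*/*p53* dKO line 3 and *Pcdhb22* in *Nf1*/*Cdkn2a* dKO line 1. The exons of *Pcdhb21* and *Pcdhb22* overlap on the same strand, so these 2 are not cleanly parted. *Pcdhb22* had 16.8 CPM in *Nf1*/*Cdkn2a* dKO line 1 and 2.15 to 6.52 CPM in the other lines, and *Pcdhb17* had 7.09, 3.20 and 1.31 CPM against 4.49, 11.8 and 8.96 CPM. At a level of 1 CPM or more, 7, 8 and 6 of the 22 beta genes were seen across the *Nf1*/*p53* dKO lines, against 8, 10 and 8 in the *Nf1*/*Cdkn2a* dKO lines. At 0.5 CPM the counts were 8, 9 and 9 against 10, 11 and 10, and at 2 CPM 3, 5 and 2 against 5, 7 and 8. *Pcdhb16* to *Pcdhb22*, at the end of the array, had at least 0.650 CPM in every line, and no other beta gene did. Outside that stretch, *Pcdhb7* reached 2.38 CPM in *Nf1*/*Cdkn2a* dKO line 2 and *Pcdhb14* 3.33 CPM in *Nf1*/*Cdkn2a* dKO line 3.

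**Figure D5:**
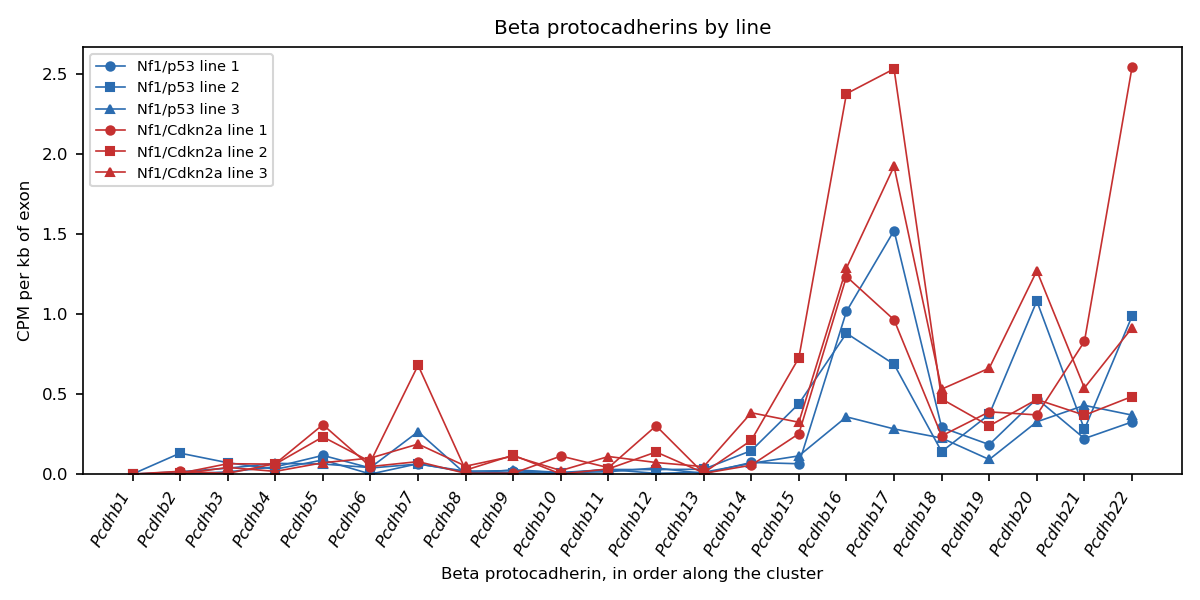
Level of the 22 beta protocadherins by line, in CPM per kilobase of exon, ordered by gene number (horizontal axis), with *Nf1*/*p53* dKO lines in blue and *Nf1*/*Cdkn2a* dKO lines in red, and lines drawn to guide the eye. Levels were highest from *Pcdhb16* on, and the tallest points belong to *Pcdhb22* in *Nf1*/*Cdkn2a* dKO line 1 and to *Pcdhb17* and *Pcdhb16* in *Nf1*/*Cdkn2a* dKO line 2.

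The alpha and gamma arrays each had 1 row in the table, named *Pcdha10* and *Pcdhga12*. In GENCODE M21 their identifiers carry other names, *Pcdha11* and *Pcdhgc4*, and their exons are shared with the remaining genes of each array, so a row cannot be read as 1 isoform and no level per length is given. The gamma row was abundant in every line, with 297, 356 and 418 CPM across the *Nf1*/*p53* dKO lines, against 413, 463 and 560 CPM across the *Nf1*/*Cdkn2a* dKO lines. The genotypes overlapped by a narrow margin (log2 fold change 0.42, standard error 0.19, edgeR adjusted p = 0.254). The alpha row was low, between 0.216 and 2.18 CPM, with no order by genotype (log2 fold change -0.48, edgeR adjusted p = 0.780).

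Ordered by mean level over the 6 lines in CPM per kilobase of exon, the members ran *Cdh2* (34.5), *Pcdh7* (30.5), *Pcdh18* (15.9), *Cdh11* (11.2), *Pcdh19* (9.07), *Cdh15* (8.23), *Pcdh1* (6.74) and *Cdh13* (5.13), and all other members with a value were below 2. Neighbors in this order overlapped across lines, *Cdh2* from 21.3 to 44.3 and *Pcdh7* from 10.4 to 49.7, so the order of such pairs is not fixed by the data. Within a genotype, the line accounted for a median of 88.4% of a member's variance in log2 level, the remainder being spread among cultures, beside 78.7% over all genes tested. Each line held the highest level of some members, from 5 of the 42 in *Nf1*/*p53* dKO lines 2 and 3 to 12 in *Nf1*/*Cdkn2a* dKO line 3.

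Genes that work with cadherins were read from the same fit. Of 20 catenins and junction adaptors, 19 were tested and 0 passed in edgeR, with 3 at an unadjusted p under 0.05, beside 22.4% of all genes tested. *Ctnnb1*, β-catenin, had 547, 580.2 and 669 CPM against 581, 649 and 612 CPM, and *Ctnnd2*, δ-catenin of neurons, was the lowest at 3.60, 0.255 and 1.56 CPM against 0.0160, 0.0288 and 0.0313 CPM (log2 fold change -6.05, edgeR adjusted p = 0.052). *Ctnnal1*, an α-catenin relative, was the highest (log2 fold change 0.78, edgeR adjusted p = 0.069). Of the other superfamily genes, 11 of 22 were tested and 0 passed in edgeR, with 3 at an unadjusted p under 0.05, beside the same 22.4%. Their extremes were *Fat2*, a giant protocadherin-like receptor (log2 fold change 1.92, edgeR adjusted p = 0.106), and *Ret*, a receptor kinase with cadherin repeats (log2 fold change -5.32, edgeR adjusted p = 0.086). Of 6 genes for proteases that cut cadherins, or for subunits of such proteases, 6 were tested and 0 passed in edgeR. An unadjusted p under 0.05 was seen in 4, beside 22.4% of all genes tested. All 6 had log2 fold changes above 0, from 0.46 for *Adam17* to 1.49 for *Psen2*, beside 48.2% of all genes.

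Of 14 transcription factors of the cadherin switch, 11 were tested and 1 rose, beside 0.638% of all genes called higher. *Twist2*, a helix-loop-helix factor of mesenchyme, had 13.5, 14.6 and 8.88 CPM across the *Nf1*/*p53* dKO lines, against 39.9, 39.0 and 46.6 CPM across the *Nf1*/*Cdkn2a* dKO lines. All *Nf1*/*Cdkn2a* dKO lines were higher, by a log2 fold change of 1.77 with a standard error of 0.23 (edgeR adjusted p = 0.032). The call was lost, at adjusted p of 0.0559 to 0.123, without any single line other than *Nf1*/*p53* dKO line 3. *Zeb2*, a repressor of E-cadherin, was the lowest of the list (log2 fold change -0.51, edgeR adjusted p = 0.421). Of 19 regulators of the protocadherin arrays, all tested, 1 fell, beside 1.16% of all genes called lower. *Setdb1*, a histone H3 lysine methyltransferase that represses repeats and acts on these arrays in neurons, had 109, 103 and 130 CPM across the *Nf1*/*p53* dKO lines, against 54.4, 53.2 and 53.1 CPM across the *Nf1*/*Cdkn2a* dKO lines. The groups did not overlap, and the log2 fold change was -1.09 with a standard error of 0.14 (edgeR adjusted p = 0.029), lost at adjusted p of 0.0659 to 0.124 without *Nf1*/*p53* dKO line 2 or any *Nf1*/*Cdkn2a* dKO line. In 8 of the 19 the *Nf1*/*Cdkn2a* dKO lines lay below the *Nf1*/*p53* dKO lines with no overlap, beside 16.6% of all genes, and the median log2 fold change was -0.25. *Dnmt3a*, a DNA methyltransferase, was the highest of the list at 0.11, a sign that turned under raw total counts.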

How the data were processed

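RNA-seq was run on 18 libraries of MPNST-derived lines, passaged repeatedly before use, with RNA extracted in TRIzol and libraries, sequencing and analysis by a company. The authors deposited 1 table of unnormalized read counts, with a column for each library. The submitters' processing notes name CASAVA, STAR 2.5, DESeq2 1.14.1 and the builds GRCm38 and mm10. The counting tool, strand setting and annotation release are not given in the sources used here. All count columns belonged to a labelled sample (0 did not).

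Cultures of a line share a tumor, so their counts were summed to 6 samples. Genes were kept with filterByExpr (minimum count 10, total 15), scaled with TMM and tested with edgeR 4.0.16 (R 4.3.3) at an adjusted p under 0.05. Alternatives used limma 3.58.1, DESeq2 1.42.0, other scalings and filters, blocks and lines left out. p-values measure the spread between these lines. No 2 cultures of a line agreed within counting noise (chi-square per degree of freedom 3.57 to 29.2). No source used here mentions molecular identifiers, so limits from a count of 0 cover counting error only. Exon lengths and positions came from GENCODE M21, in which all 59 members were found by identifier, and 22 members had a RefSeq promoter. The fit was tested on simulated counts with the same spread set for every gene, so that test does not check it at the spread of these lines.

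The members and lists were chosen with earlier results of these data known. Named genes were those called, the 3 highest by mean CPM and the highest and lowest log2 fold change of each group, a list of well-known members, and the called and extreme genes of each partner list. *Cdh7*, *Cdh8*, *Cdh9*, *Cdh12*, *Cdh18*, *Cdh20*, *Ctnnb1*, *Pcdh8*, *Pcdh11x*, *Pcdh12*, *Pcdh15*, *Pcdhb1*, *Pcdhb6*, *Pcdhb7*, *Pcdhb14*, *Pcdhb20* and *Pcdhb21* were named after their values were seen, as were the genes of marker lists. *Nectin1*, *Nectin2*, *Nectin3*, *Afdn* and *Wapl* were matched by identifier, and *Dchs2* was not analysed here.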

Additional observations from a re-analysis of the deposited data

Results flagged for a closer look

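The level of *Pcdhb3* in culture 3 of *Nf1*/*p53* dKO line 2, 0.582 CPM, stood apart from the other cultures of its genotype, of which the nearest had 0.200 CPM. The gap was 0.657 of the range of the 9 cultures, above Dixon's 95% critical value for that number. The test was run on 59 sets of cultures, and chance marks about 1 set in 20. *Pcdhb3* is among the lowest beta genes, and no difference reported for it passed a test.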

How the results depend on the processing

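The 274 genes called in all became 6096 (edgeR) and 6409 (DESeq2) with the 18 cultures as separate samples, 2171 with DESeq2 on the 6 lines, 2173 with limma-voom and the line as a random effect, and 423 with raw total counts. The 3 members called of 42 tested became 19 of 32, 21 of 32, 10 of 42 and 9 of 32 under the first 4 of these. The genes tested in all were then 13110, 13110, 15207 and 13110. When every line had to hold 10 counts, 1 of 29 members was called, beside 226 of 13092 genes, and *Cdh15* and *Cdh10* are no longer tested. The first pair of fits counts cultures of the same tumor as independent. Raw totals moved the median of all genes from -0.02 to -0.16 on the log2 scale and the share of higher genes among calls from 35.4% to 20.3%, and *Pcdh7* was then not called. With each line left out in turn, 0 to 172 genes and 0 to 2 members were called. With the culture number as a replicate block, 2012 of 13110 genes and 9 of 32 members were called. With the line number as a replicate block, edgeR called 0 of 15207 genes and 0 of 42 members (2740 genes and 14 members at an unadjusted p under 0.05). Same-numbered lines did not deviate together (r = -0.117, -0.130 and -0.0832), beside 0.0201 to 0.0825 for pairs of unlike number. Deviations from a mean of 3 lines are tied to each other, so the check cannot exclude an order or batch behind the numbers.

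*Cdh24* turned to -0.10 with raw totals and -0.0056 with upper-quartile scaling, and *Dnmt3a* to -0.026 with raw totals. *Cdh26* turned to 2.07 with limma-voom, 2.38 with the culture block and 2.71 with the line block, and *Pcdha10* to 0.14 with the culture block. With a line left out, the log2 fold change spanned 0 for *Cdh11* (-1.73 to 0.040), *Cdh17* (-0.27 to 0.72), *Cdh23* (-1.43 to 0.012), *Cdh24* (-0.12 to 0.25), *Cdh26* (-1.13 to 5.45), *Cdkn2a* (-0.18 to 0.81), *Dnmt3a* (-0.16 to 0.55), *Pcdh9* (-0.090 to 1.09), *Pcdha10* (-1.01 to 0.017) and *Pcdhb3* (-0.80 to 0.57). The causes were not tested. Of the 43 genes refitted singly, the other 33 kept their sign in every alternative that gave a value. Most genes named after their values were seen were not among them. Levels under about 0.05 CPM rest on 3 counts or fewer in a line.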

Other observations

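Over the 18 libraries, which share cultures of 6 lines, the genes whose log2(CPM + 0.5) was most like that of 3 members were listed out of 15207 as a description, with no test. For *Cdh15* they were *Setdb1* (Pearson r = 0.996), *Arhgef2* (0.992) and *Fgfr2* (0.992). The genotypes were far apart for *Cdh15*, so a gene with a like gap between them tends to have a high r with it. *Fgfr2*, a fibroblast growth factor receptor, had 10.1, 8.94 and 16.3 CPM across the *Nf1*/*p53* dKO lines, against 0.0642, 0.159 and 0.235 CPM across the *Nf1*/*Cdkn2a* dKO lines, with line 3 of the *Nf1*/*p53* dKO the highest as for *Cdh15*. For *Cdh11* they were the extracellular matrix gene *Col6a1* (0.985), *Mustn1* (0.977) and the lysyl oxidase gene *Loxl3* (0.976). *Col6a1* had 209.96, 657 and 216 CPM against 194, 27.3 and 355 CPM, so that *Nf1*/*Cdkn2a* dKO line 2 was the lowest for it as well. For *Cdh2* they were *App*, the amyloid precursor gene (0.974), *Prim2* (0.966) and *Atg9a* (0.962).

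The 7 leukocyte markers summed to 2.71 to 5.36 CPM across the *Nf1*/*p53* dKO lines, against 17.8 to 24.0 CPM across the *Nf1*/*Cdkn2a* dKO lines. *Laptm5* made up most of the latter (0.503, 0.0849 and 0.166 CPM against 11.8, 10.99 and 18.6 CPM), followed by *Cd68*, while *Ptprc*, *Lyz2*, *Itgam*, *Cd3e* and *Cd79a* were at or under 0.563 CPM in every line. *Laptm5* passed the test as higher (log2 fold change 5.76, edgeR adjusted p = 0.030). The 5 neuronal markers summed to 16.6 to 33.0 CPM and 12.1 to 36.3 CPM. *Tubb3* made up most of each sum, at 11.5 to 35.8 CPM, while *Rbfox3*, *Snap25*, *Syt1* and *Elavl4* were at or under 0.792 CPM in every line.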
